A study of Mus musculus with 6 samples.

Results

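The genes described are the 40 that make cholesterol and fatty acids or control their making, chosen by symbol for their known role in these pathways, out of 55357 genes in the count files. They comprise 18 enzymes that run from acetyl-CoA through mevalonate and squalene to cholesterol, 6 genes that regulate the pathway or carry sterols within the cell, and 16 enzymes that build, elongate and desaturate fatty acids. All 40 were measured in 6 RNA-seq libraries of primary cultures of wild type mouse cortical and hippocampal neurons, prepared from E18 C57BL/6N embryos. Both groups received a lentivirus at DIV4 and were collected at DIV14. The 3 libraries called shCtrl came from cultures given particles with a control (scrambled) shRNA, and the 3 called sh*Pla2g4e* from cultures given particles with an shRNA, named sh2 in the study, against *Pla2g4e*, which encodes an enzyme that transfers fatty acyl chains between phospholipids. The comparison asks what happens to the transcripts of these cultures when *Pla2g4e* is silenced before its peak of expression.

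Cholesterol does not cross the blood-brain barrier in lipoproteins, so the brain makes its own, and growing neurites and synapses need it together with long and unsaturated fatty acids for their membranes. The genes of both pathways are switched on by the transcription factors SREBP1 and SREBP2, which are made as precursors in the membrane of the endoplasmic reticulum. When sterols are scarce the escort protein SCAP carries the precursors to the Golgi apparatus for cleavage, and when sterols are plentiful the INSIG proteins hold SCAP back, while *Insig1* is itself an SREBP target.

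The short RNA that the cultures of the knockdown group received had the 19-nt target below in the *Pla2g4e* coding sequence, shown with its guide strand because a guide can also pair through its seed (bases 2 to 8) with other transcripts. Capitals mark the seed of the guide and the matching site in the target.
sh2 target: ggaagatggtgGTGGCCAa
sh2 guide: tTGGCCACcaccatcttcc

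The stretches below are 300 bases of RefSeq promoter sequence (GRCm38.p6, from 250 bases before to 50 after the annotated start) of *Insig1*, *Cyp51* and *Dhcr7*, which had the 3 largest increases among the genes that passed the test, and of *Hmgcs1*, an abundant gene of the same pathway that did not pass. Capitals mark CCAAT, the box bound by NF-Y, a factor that works beside SREBP on many sterol genes, on either strand, and TCACNCCAC, the core of a classical sterol regulatory element.
Insig1 promoter window, chr5:28071162-28071461, plus strand: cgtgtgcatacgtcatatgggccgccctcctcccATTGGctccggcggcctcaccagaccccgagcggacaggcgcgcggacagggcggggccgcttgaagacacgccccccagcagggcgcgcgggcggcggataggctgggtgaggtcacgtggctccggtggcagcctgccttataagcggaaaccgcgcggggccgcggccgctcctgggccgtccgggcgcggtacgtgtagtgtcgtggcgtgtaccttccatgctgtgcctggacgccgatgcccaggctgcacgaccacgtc
Cyp51 promoter window, chr5:4104648-4104947, minus strand: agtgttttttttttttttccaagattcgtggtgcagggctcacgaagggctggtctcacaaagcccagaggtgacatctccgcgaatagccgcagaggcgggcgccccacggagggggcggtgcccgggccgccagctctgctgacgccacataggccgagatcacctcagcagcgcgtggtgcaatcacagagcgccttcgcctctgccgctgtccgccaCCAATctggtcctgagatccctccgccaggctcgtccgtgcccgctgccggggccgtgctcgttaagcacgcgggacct
Dhcr7 promoter window, chr7:143829964-143830263, plus strand: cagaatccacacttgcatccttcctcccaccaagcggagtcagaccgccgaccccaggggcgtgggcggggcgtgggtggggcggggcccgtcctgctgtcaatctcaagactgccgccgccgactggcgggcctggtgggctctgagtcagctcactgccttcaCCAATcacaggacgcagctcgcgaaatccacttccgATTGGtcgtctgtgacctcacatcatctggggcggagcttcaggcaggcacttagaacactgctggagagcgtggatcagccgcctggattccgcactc
Hmgcs1 promoter window, chr13:119690101-119690400, plus strand: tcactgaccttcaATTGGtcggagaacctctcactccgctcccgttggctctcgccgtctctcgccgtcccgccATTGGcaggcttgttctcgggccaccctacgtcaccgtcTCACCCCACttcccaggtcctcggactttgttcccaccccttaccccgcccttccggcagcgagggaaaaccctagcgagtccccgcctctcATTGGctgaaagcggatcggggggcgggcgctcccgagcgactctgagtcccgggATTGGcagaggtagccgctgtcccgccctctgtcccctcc

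Total counts lay between 20387986 and 22561667 reads per library for shCtrl and between 17054717 and 23570180 for sh*Pla2g4e*. Levels are given as CPM, reads scaled to a common library size by TMM, and a gene is called when its adjusted p in edgeR's quasi-likelihood test over the 21876 genes tested was below 0.01. *Pla2g4e* itself stood at 38.0, 35.1 and 35.4 CPM in the shCtrl libraries and at 21.8, 14.1 and 18.7 CPM in the sh*Pla2g4e* libraries (log2 fold change −0.99, SE 0.13, adjusted p = 1.24e-04), so the targeted gene moved as the labels say. Nothing in the labels or methods says that the 3 libraries of a group came from separate embryos or cultures, so the p-values measure only the spread between these libraries, which may be technical. The lentivirus is not restricted to neurons. Of the markers of other cells these cultures can hold, 3 of 10 astrocyte genes fell (*Aqp4*, *Slc1a2* and *Gja1*), where 4.00% of all genes tested fell and 2.48% rose. The astrocyte markers summed to 2978 to 3805 CPM in shCtrl and 2051 to 3244 CPM in sh*Pla2g4e*. No gene of the oligodendrocyte lineage was called among 10 (572 to 648 against 588 to 724 CPM), and microglial genes were near absent (6 markers summing to 3.07 to 7.73 against 2.59 to 4.23 CPM). The 6 mural and endothelial markers summed to 35.9 to 39.7 against 35.9 to 45.2 CPM and held 0 calls. Among them the endothelial marker *Cldn5* had 0 reads in every library. Neuronal markers were abundant, with 8 genes summing to 5029 to 5478 CPM in shCtrl and 4625 to 5089 CPM in sh*Pla2g4e*, of which *Map2* and *Rbfox3* fell and *Nefl* and *Nefm* rose. With the libraries paired by replicate number (a block in the fit), 7 astrocyte genes were called lower, *Gfap*, *Slc1a3*, *Aldoc* and *Sox9* being added, and 1 higher, *S100b*. Of all genes tested, 9.02% were called lower and 6.50% higher with the block. The block also added *Olig2* of the oligodendrocyte lineage as lower, and *Snap25* of the neuronal and *Col1a1* of the mural and endothelial markers as higher. The part of these shifts in the results on the 40 genes was not tested.

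All 40 genes passed the filter of 6 reads in at least 1 library and were tested. In the cultures with less *Pla2g4e*, 5 of them rose, namely *Insig1*, *Dhcr7*, *Cyp51*, *Insig2* and *Acat2*, and 1 fell, the desaturase gene *Fads3*. The 5 that rose are all sterol enzymes or regulators, and with scaling by library size alone 7 rose and 0 fell. Of all genes tested 2.48% rose and 4.00% fell, against 12.5% and 2.50% of the 40. The 40 genes and the other lists were chosen with earlier results of these data known. Shares of them called therefore describe the lists and are not independent support. The log2 fold changes of the 40 genes ran from −1.25 for *Acacb* to 0.90 for *Insig1* with a median of 0.08 (0.03 over all genes tested), and 24 lay above 0 and 16 below. Over all genes tested, 11714 lay above 0 and 10162 below. The libraries of the 2 groups did not overlap for 15 of the 40 genes, 10 of them higher and 5 lower in sh*Pla2g4e*, where 30.0% of all genes did not overlap. At an adjusted p of 0.05, 7 of the 40 were higher and 4 lower, beside 5.55% and 7.31% of all genes. At an unadjusted p under 0.05 stood 17 of the 40, and 25.7% of all genes tested. Neither labels nor methods pair the libraries, but in these counts libraries of the same number deviated together. The test was therefore also run with the replicate number as a block, an alternative that rests on pairs inferred from the same data. It called 10 of the 40 as higher and 5 as lower, beside 6.50% and 9.02% of all genes. All 6 genes called without the block were among these 15. In bulk RNA, fewer cells of a type and less RNA per cell cannot be told apart.

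**Figure D1:**
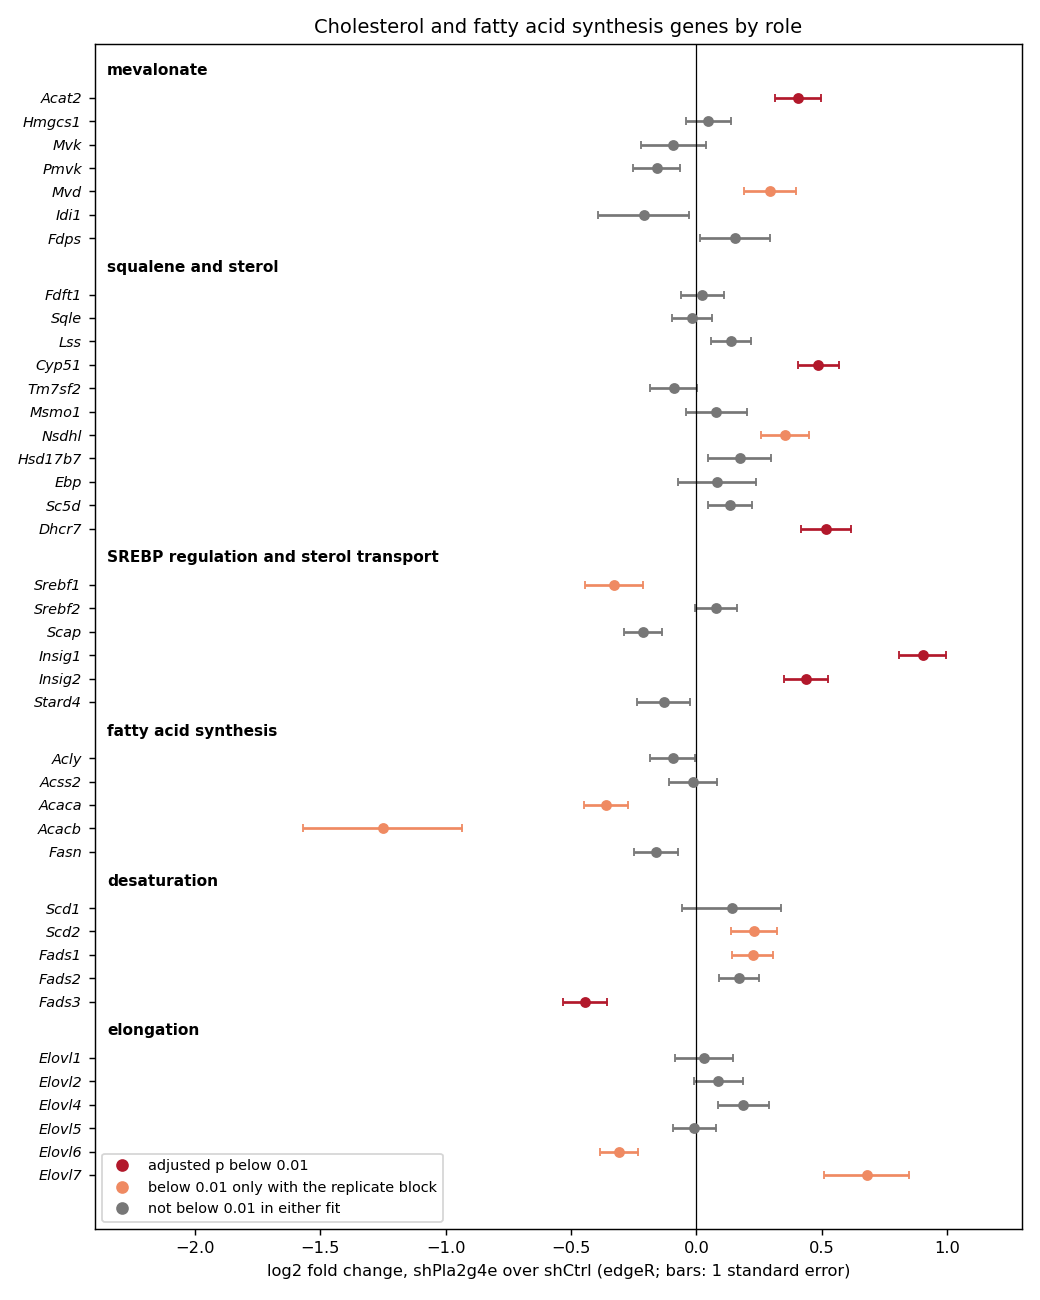
Log2 fold change of each of the 40 genes, sh*Pla2g4e* over shCtrl, from edgeR with bars of 1 standard error, grouped by role, with 3 libraries per group. *Insig1* at 0.90 lies farthest to the right and *Acacb* at −1.25, with the widest bar, farthest to the left, and coloured points separate genes called with and without the replicate block from the rest.

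The smallest adjusted p of the 40 genes was that of a regulator. *Insig1*, which encodes the sterol-dependent anchor of SCAP, stood at 102, 85.2 and 104 CPM in the shCtrl libraries and at 181, 198 and 166 CPM in those of sh*Pla2g4e*. The lowest knockdown library lay far above the highest control library. The gene lies on the plus strand of chromosome 5 (GRCm39, 28276361 to 28283660), and its increase was 1.87-fold (log2 fold change 0.90, SE 0.09, 95% confidence interval 0.70 to 1.10, adjusted p = 1.25e-05 in edgeR). It was called under every alternative tried, with adjusted p-values up to 0.000299, and the log2 ratios within the 3 pairs of same-numbered libraries were 0.83, 1.21 and 0.67. *Insig2* (chromosome 1, 121232082 to 121260318, minus strand), whose protein does the same work as INSIG1 but whose transcription depends less on SREBP, went from 31.7, 29.4 and 30.9 CPM to 43.0, 41.1 and 40.6 CPM. The spread within each group was small, and the groups were well apart (log2 fold change 0.44, SE 0.09, adjusted p = 0.00344 in edgeR). Leaving out shCtrl replicate 1, shCtrl replicate 2 or sh*Pla2g4e* replicate 1 took *Insig2* above the threshold, with an adjusted p of at most 0.0294.

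The other 4 regulators did not pass the test. *Srebf1*, the gene of SREBP1, had 98.7, 102 and 119 CPM in shCtrl and 70.1, 83.8 and 101 CPM in sh*Pla2g4e*. The groups overlapped, because sh*Pla2g4e* replicate 3 lay between the lower control libraries, but within each numbered pair the knockdown library was the lower (log2 ratios −0.49, −0.29 and −0.23). Its log2 fold change was −0.33 (SE 0.11) with an adjusted p of 0.0742 in edgeR, and 0.000122 with the replicate block (0.000122 to 0.294 over all alternatives). *Scap* had a log2 fold change of −0.21 (SE 0.08, adjusted p = 0.0771) and stayed above the threshold with the block, although the libraries did not overlap (115, 113 and 114 CPM against 94.0, 102 and 99.2 CPM). *Srebf2*, the gene of SREBP2 and the main activator of the sterol enzymes, lay at 311 ± 29.2 CPM (SD, n = 3) in shCtrl and 328 ± 4.81 CPM in sh*Pla2g4e*, with a log2 difference of 0.08 (95% confidence interval −0.10 to 0.26). *Stard4*, which carries cholesterol between membranes, had a log2 difference of −0.13 (−0.35 to 0.09).

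**Figure D2:**
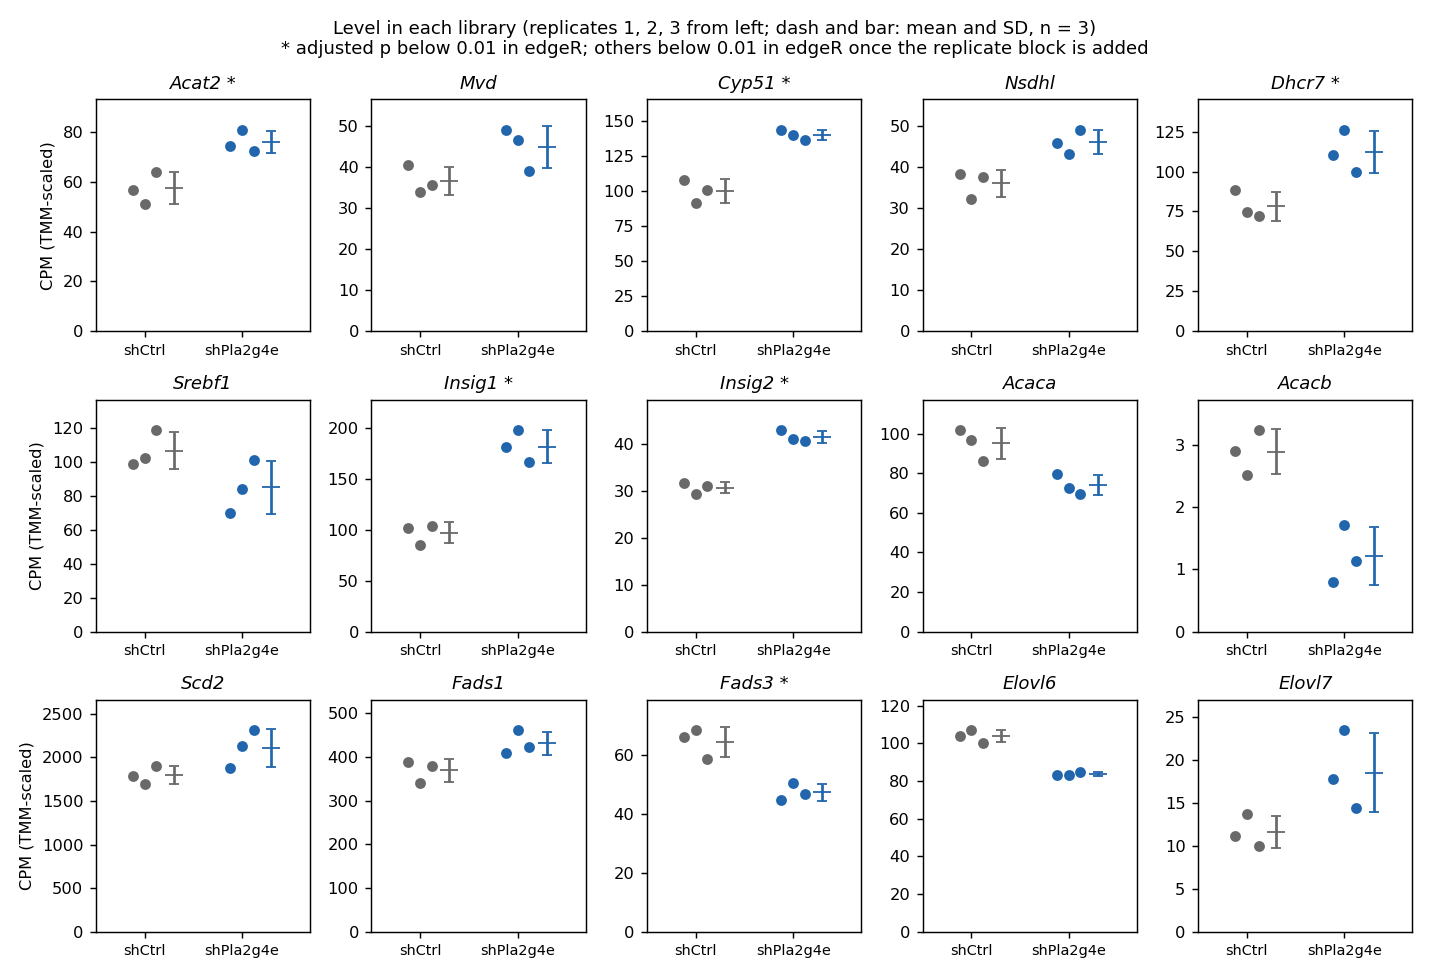
TMM-scaled CPM in each of the 6 libraries for the 15 genes called with the replicate block, with replicates in the order 1, 2, 3 within each group and the mean and SD (n = 3) beside them, on axes that start at 0. An asterisk marks the 6 genes called without the block, and for *Insig1* the control libraries sit between 85.2 and 104 CPM and the knockdown libraries between 166 and 198 CPM.

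In the mevalonate part of the pathway, 1 of 7 genes rose (14.3%, where 2.48% of all genes rose) and none fell. *Acat2*, the thiolase that joins acetyl-CoA units in the cytosol (chromosome 17, 13161777 to 13179634, minus strand), had 56.8, 51.2 and 64.0 CPM in shCtrl and 74.5, 80.8 and 72.3 CPM in sh*Pla2g4e*. The groups did not overlap (log2 fold change 0.40, SE 0.09, adjusted p = 0.00822 in edgeR), but the adjusted p was above the threshold without shCtrl replicate 1, shCtrl replicate 2 (0.0716), sh*Pla2g4e* replicate 1 or sh*Pla2g4e* replicate 2. Of the 50-base stretches of its transcript with the longest coding sequence, 45.9% also occur in other genes, mostly *Acat3*. Reads that map to several places were not counted. *Acat3* itself had a mean of 0.965 CPM in shCtrl and 1.04 CPM in sh*Pla2g4e*. *Mvd*, the mevalonate diphosphate decarboxylase, had 40.6, 34.0 and 35.7 CPM against 49.2, 46.6 and 39.1 CPM. Its groups overlapped and its log2 fold change of 0.29 (SE 0.10) passed only with the replicate block (adjusted p = 0.0776 without it, 0.00812 with it, 0.00812 to 0.333 over all alternatives).

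The other 5 mevalonate genes did not pass the test. *Hmgcs1*, the HMG-CoA synthase and the most abundant sterol enzyme here, lay at 529 ± 40.7 CPM (SD, n = 3) in shCtrl and 547 ± 47.5 CPM in sh*Pla2g4e*, a log2 difference of 0.05 (95% confidence interval −0.14 to 0.24). The kinase genes *Mvk* and *Pmvk* had log2 fold changes of −0.09 and −0.16, and *Fdps*, the farnesyl diphosphate synthase, 0.15. *Idi1*, the isopentenyl diphosphate isomerase, had −0.21 (−0.59 to 0.17) at 8.22 ± 1.92 and 7.13 ± 0.595 CPM. The counts of *Fdps* and *Idi1* are uncertain. Of the 50-base stretches of their transcripts with the longest coding sequence, 86.4% and 21.3% occur in other genes. For *Hmgcs1*, 12.1% of the exon bases lie opposite exons of a gene on the other strand, from which the counting could not tell its reads. The same holds for 18.8% of the exon bases of *Fdft1*, 13.2% of *Scap*, 9.22% of *Idi1* and 9.12% of *Acss2*. On the same strand, 26.7% of the exon bases of *Fdps* and 12.1% of those of *Tm7sf2* overlap another gene.

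Between squalene and cholesterol, 2 of 11 genes rose (18.2%, again beside 2.48% of all genes) and none fell. *Cyp51*, the lanosterol demethylase, an early enzyme after cyclization of the sterol ring (chromosome 5, 4131145 to 4154746, minus strand), had 108, 91.0 and 101 CPM in shCtrl and 143, 139.6 and 136 CPM in sh*Pla2g4e*. All 3 knockdown libraries lay above all 3 controls and close to each other (1.40-fold, log2 fold change 0.49, SE 0.08, adjusted p = 0.000902 in edgeR). Only without shCtrl replicate 2 did it miss the threshold, at 0.0142. *Dhcr7*, a reductase of the final steps to cholesterol (chromosome 7, 143376882 to 143402147, plus strand), had 88.7, 74.6 and 71.9 CPM against 110.0, 126 and 100 CPM. The groups did not overlap, the spread was wider than for *Cyp51*, and the increase was 1.43-fold (log2 fold change 0.52, SE 0.10, adjusted p = 0.00279 in edgeR). It missed the threshold without shCtrl replicate 2 (0.0278), shCtrl replicate 3, sh*Pla2g4e* replicate 1 or sh*Pla2g4e* replicate 2. *Nsdhl*, which removes methyl groups from the sterol ring together with *Msmo1* and *Hsd17b7*, had 38.3, 32.3 and 37.7 CPM against 46.1, 43.4 and 49.2 CPM. Its libraries did not overlap either, and its log2 fold change of 0.35 (SE 0.09) passed with the block (adjusted p = 0.0215 without it, 0.000744 with it, 0.000744 to 0.134 over all alternatives).

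The remaining 8 genes of this stretch had log2 fold changes between −0.09 and 0.17 and adjusted p-values of 0.31 and above in edgeR. They are *Fdft1* (squalene synthase, 0.02), *Sqle* (squalene epoxidase, −0.02), *Lss* (lanosterol synthase, 0.14), *Tm7sf2* (a sterol reductase, −0.09), *Msmo1* (0.08), *Hsd17b7* (0.17), *Ebp* (a sterol isomerase, 0.08) and *Sc5d* (a sterol desaturase, 0.13). *Sqle*, commonly regarded as a control point of the pathway, was at 132 ± 8.85 CPM in shCtrl and 130.3 ± 7.19 CPM in sh*Pla2g4e* (95% confidence interval of the log2 difference −0.19 to 0.16). In *Hsd17b7* the 3 pairs went different ways, with log2 ratios of 0.48, 0.29 and −0.31. Over the 18 sterol enzymes, 13 lay above 0 and 5 below, where 11714 of all genes tested lay above and 10162 below. In edgeR 3 rose (16.7%, where 2.48% of all genes rose) and 0 fell (likewise 0 lower in limma and DESeq2, and 5 of the 18 at an unadjusted p under 0.05, close to the 25.7% of all genes). The median log2 fold change was 0.11.

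Of the 5 genes of fatty acid synthesis, 0 passed the test in edgeR or limma, 2 had an unadjusted p under 0.05 (25.7% of all genes did), and DESeq2 called 1. Their log2 fold changes ran from −1.25 to −0.01 with a median of −0.16, and that of *Acss2* turned positive with scaling by library size alone and with the filter of 10 reads. The gene called by DESeq2, *Acaca*, encodes the acetyl-CoA carboxylase that commits acetyl-CoA to fatty acids and had 102, 97.0 and 86.4 CPM in shCtrl and 79.5, 72.9 and 69.8 CPM in sh*Pla2g4e*. The groups did not overlap and the log2 fold change was −0.36 (SE 0.09), with an adjusted p of 0.0117, just above the threshold, and 4.02e-05 with the replicate block (4.02e-05 to 0.0658 over all alternatives). Its count is uncertain in part. Of the 50-base stretches of its transcript with the longest coding sequence, 52.6% also occur in other genes, most in the gene model *Gm5182*.

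*Acacb*, the mitochondrial acetyl-CoA carboxylase whose malonyl-CoA restrains fatty acid oxidation, was the least expressed of the 40, with 60, 50 and 73 reads in shCtrl and 19, 37 and 20 reads in sh*Pla2g4e*. These correspond to 2.91, 2.52 and 3.24 CPM against 0.795, 1.71 and 1.14 CPM, with no overlap and the largest fold of the 40 genes. The log2 fold change of −1.25 had a wide interval (−1.92 to −0.58) and an adjusted p of 0.0157 in edgeR, and of 0.00099 with the block (0.00099 to 0.0712 over all alternatives). *Fasn*, the fatty acid synthase, was at 575 ± 57.6 CPM and 514 ± 26.8 CPM (log2 difference −0.16, 95% confidence interval −0.35 to 0.02). The genes of acetyl-CoA supply, *Acly* (from citrate) and *Acss2* (from acetate), had log2 fold changes of −0.09 and −0.01.

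Among the 5 desaturases, 1 fell (20.0%, where 4.00% of all genes fell) and 4 lay above 0. An unadjusted p under 0.05 in edgeR was held by 4 of the 5, and by 25.7% of all genes. *Fads3*, whose enzyme desaturates sphingoid bases and whose gene lies in a desaturase cluster on chromosome 19 (10018933 to 10037474, plus strand), had 66.0, 68.2 and 58.6 CPM in shCtrl and 44.8, 50.3 and 46.5 CPM in sh*Pla2g4e*. The groups were clearly apart (0.734-fold, log2 fold change −0.45, SE 0.09, adjusted p = 0.00317 in edgeR). The call was lost with scaling by library size alone (0.0107) and without shCtrl replicate 1, shCtrl replicate 2 or sh*Pla2g4e* replicate 1 (up to 0.0307). Its neighbours *Fads1* and *Fads2*, the desaturases of polyunsaturated fatty acids, lay on the other side of 0. *Fads1* had 388, 340.1 and 379 CPM against 409.7, 461 and 423 CPM, without overlap. Its log2 fold change of 0.22 (SE 0.08) passed only with the block (adjusted p = 0.0926 without it, 0.00544 with it, 0.00544 to 0.374 over all alternatives), and that of *Fads2*, 0.17 (SE 0.08), passed neither way.

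*Scd2*, the main stearoyl-CoA desaturase of brain, was the most abundant of the 40 genes, with 1793, 1692 and 1906 CPM in shCtrl and 1880.4, 2128 and 2313 CPM in sh*Pla2g4e*. The groups overlapped, since sh*Pla2g4e* replicate 1 lay below shCtrl replicate 3. Its log2 fold change of 0.23 (SE 0.09) passed only with the block (adjusted p = 0.113 without it, 0.00185 with it, 0.00185 to 0.391 over all alternatives). *Scd1* varied widely between replicates, with 108, 86.0 and 158 CPM against 107, 104 and 178 CPM, and replicate 3 was the highest in both groups (log2 difference 0.14, 95% confidence interval −0.28 to 0.56).

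None of the 6 elongases was called in edgeR or limma, while 2 had an unadjusted p under 0.05 (25.7% of all genes did) and both were called by DESeq2. *Elovl6*, which elongates palmitate, had 104, 107 and 100.3 CPM in shCtrl and 83.2, 83.3 and 84.9 CPM in sh*Pla2g4e*. Replicates lay very close together within each group and the groups were apart (log2 fold change −0.31, SE 0.08, adjusted p = 0.0122 without the block, 0.000341 with it, 0.000341 to 0.0793 over all alternatives). *Elovl7*, an elongase of saturated long chains, had 11.2, 13.7 and 9.99 CPM against 17.8, 23.5 and 14.4 CPM. The groups did not overlap, but the closest libraries nearly met (log2 fold change 0.68, SE 0.17, adjusted p = 0.0142 without the block, 7.05e-06 with it, 7.05e-06 to 0.082 over all alternatives). *Elovl1*, *Elovl2*, *Elovl4* and *Elovl5*, which serve very long saturated and polyunsaturated chains, had log2 fold changes of 0.03, 0.09, 0.19 and −0.01. Over the 16 fatty acid enzymes 8 lay above 0 and 8 below, and the median was 0.01.

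**Figure D3:**
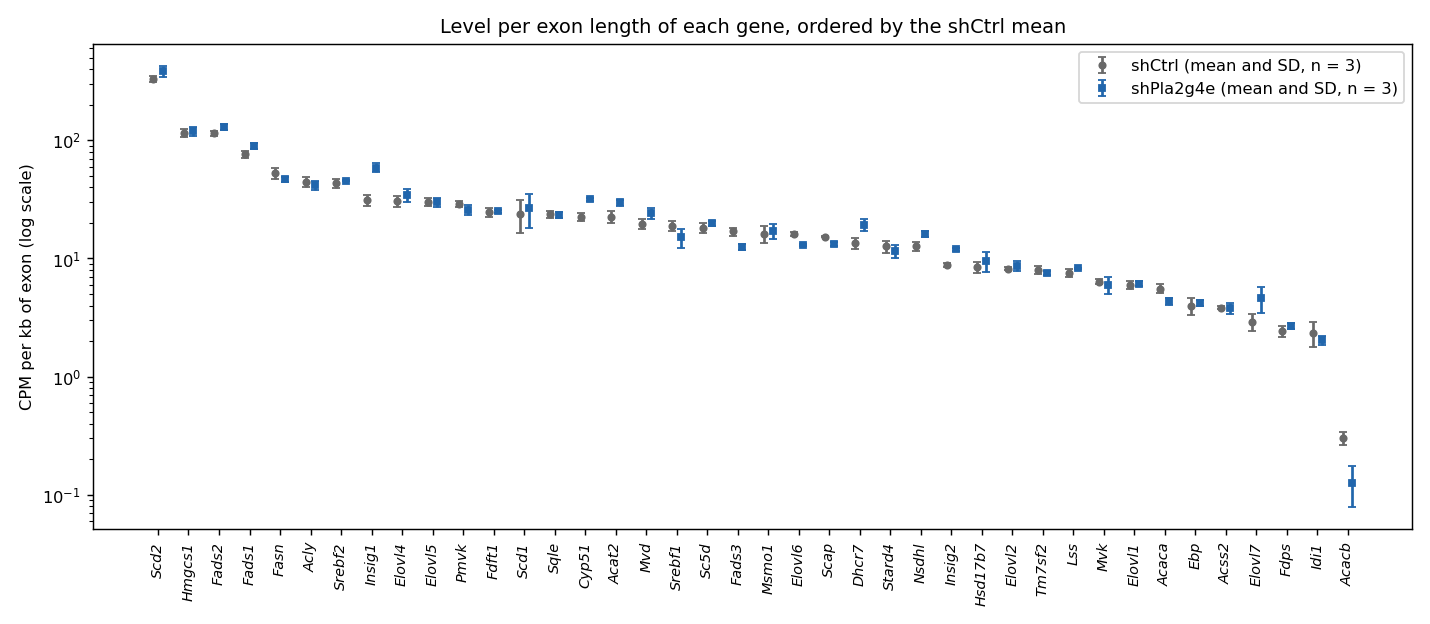
Level per kilobase of exon (CPM per kb, log axis) of the 40 genes, mean and SD over 3 libraries per group, ordered by the shCtrl mean. *Scd2* leads at 329 CPM per kb and *Acacb* is last at 0.300 CPM per kb.

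Per exon length, desaturases took 3 of the first 4 places in shCtrl. *Scd2* stood at 329 ± 19.6 CPM per kb (SD, n = 3), well above *Hmgcs1* at 115 ± 8.87 and *Fads2* at 115 ± 6.23, which did not differ beyond their spread. *Fads1* (76.7 ± 5.31), *Fasn* (52.5 ± 5.26), *Acly* (44.7 ± 4.04) and *Srebf2* (43.3 ± 4.06) followed, and neither *Fasn* and *Acly* nor *Acly* and *Srebf2* differed by more than 2 SD. *Insig1* was next at 31.4 ± 3.33 CPM per kb and reached 58.7 CPM per kb in sh*Pla2g4e*. At the low end were *Elovl7* (2.90), *Fdps* (2.42), *Idi1* (2.34) and *Acacb* (0.300), and the counts of *Fdps* and *Idi1* are uncertain as stated above.

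A promoter window was found for 33 of the 40 genes (43 windows). CCAAT, searched on both strands, occurred in a window of 26 of these 33 genes (78.8%) and of 41.9% of the 13780 tested genes with a window. By window the shares were 62.8% and 37.0%. It was found for 14 of 15 sterol enzymes (the exception being *Acat2*), 4 of 5 regulators and 8 of 13 fatty acid enzymes, with *Cyp51*, *Dhcr7* and all 12 uncalled sterol enzymes with a window among them. TCACNCCAC was present in 1 of the 33 (*Hmgcs1*, at position −137 from the start site) and in 1.45% of all tested genes, and the E-box CACGTG in 7 (21.2%) against 10.7%. *Insig1* holds 1 CCAAT, as ATTGG on the strand shown at −216, and 1 E-box at −101. In *Cyp51* the CCAAT begins at −29, in *Dhcr7* there are 2 in the window shown (−85 and −49), and *Hmgcs1* has 4. No motif overlapped another in the windows shown. A match is a description of the sequence and does not show binding.

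**Figure D4:**
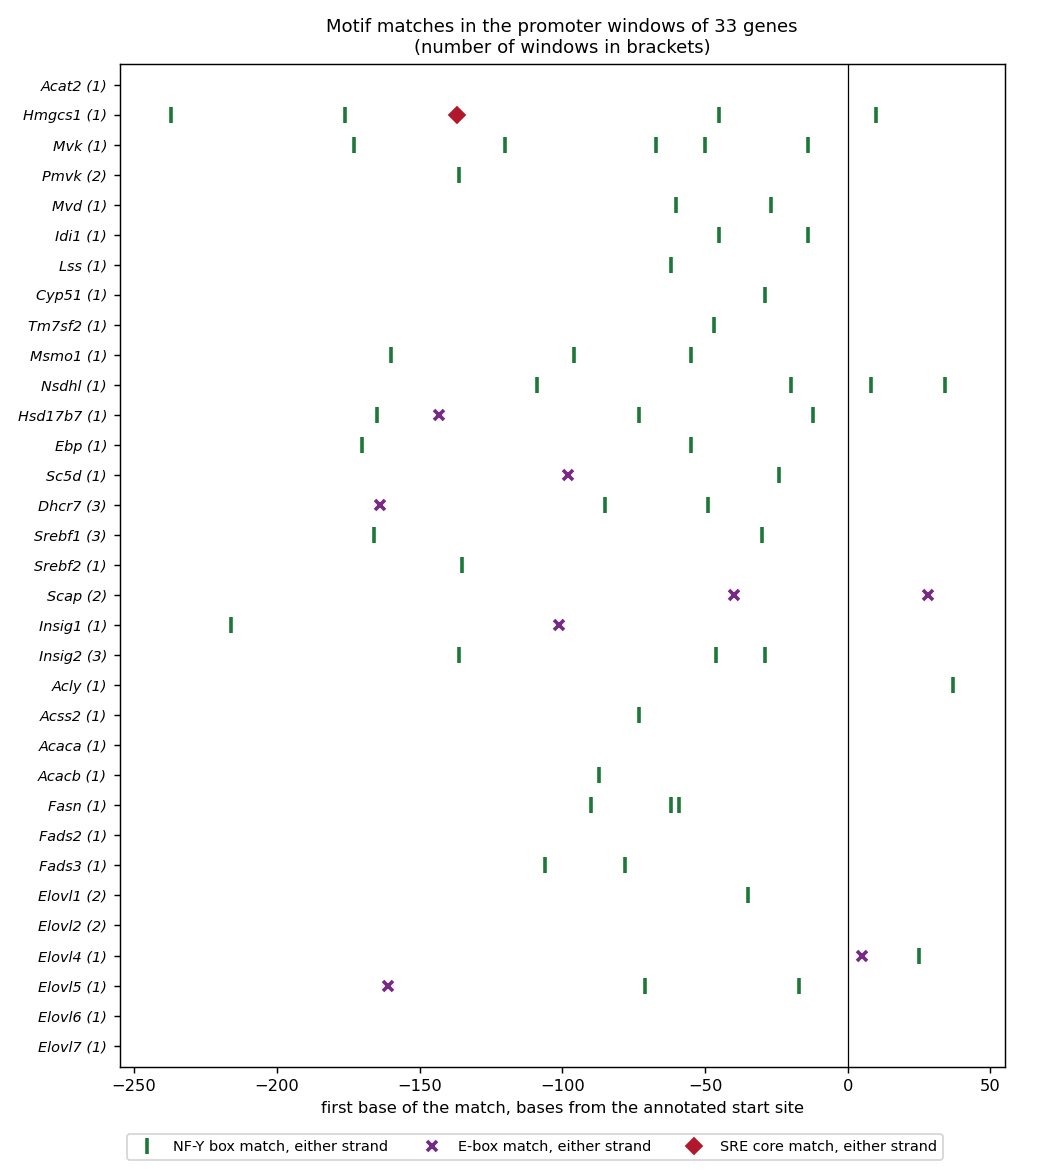
Position of each motif match in the promoter windows of the 33 genes, in bases from the annotated start site (0), with the number of windows of a gene in brackets and symbols for the NF-Y box, the E-box and the sterol regulatory element core. Most matches of the NF-Y box lie upstream of the start, 26 of the 33 genes hold at least 1, and the single element core lies in *Hmgcs1* at −137.

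The site that pairs with the sh2 seed, GTGGCCA, was present in an annotated 3′ UTR of 6 of the 40 genes (15.0%), *Mvk*, *Idi1*, *Acaca*, *Scd1*, *Fads3* and *Elovl6*, and in 14.6% of 15704 tested genes with such a region. It is absent there from all 5 genes called as higher, and *Fads3*, the gene that fell, holds it once. The sites of *Fads3*, *Elovl6* and *Acaca* are shown with their surroundings, because these 3 genes were lower in every knockdown library than in any control library. *Acacb* and *Scap*, for which this also held, have no such site in a 3′ UTR, and for *Mvk*, *Idi1* and *Scd1* the groups overlapped. The sites are read in the direction of the transcript from GENCODE vM21 (GRCm38). Capitals mark the 7 bases that pair with the seed.
Fads3 site: tgactcaagtGTGGCCAttctgtccct
Elovl6 site: agtagagtctGTGGCCAtgtgatctac
Acaca site: tgggccctatGTGGCCAgcaacacggc
In coding sequence the site occurs 2 times in *Acacb*, *Acly* and *Acss2* and once in *Acaca*, *Srebf1*, *Lss*, *Dhcr7* and *Fads1*, of which *Dhcr7* rose, *Fads1* was higher with the block and *Acaca*, *Acacb* and *Srebf1* were lower with the block. The part of the seed in these differences was not tested.

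Of 59 further genes of the surrounding pathways, 3 fell (5.08%) and 1 rose (1.69%), close to the 4.00% and 2.48% of all genes tested. With the block 8 were called lower and 3 higher, where 9.02% and 6.50% of all genes were. The 59 genes had a median log2 fold change of 0.01. Of the 6 enzymes that work with the elongases, the dehydratase genes *Hacd2* (40.0, 39.1 and 41.3 CPM against 29.7, 29.9 and 31.7 CPM) and *Hacd3* (204, 207 and 200.4 CPM against 156, 155 and 147 CPM) fell. Their log2 fold changes were −0.40 (SE 0.09, adjusted p = 0.00628) and −0.42 (SE 0.07, adjusted p = 0.00135) in edgeR, and neither showed overlap. Of 10 genes that supply acetyl-CoA, malonyl-CoA and NADPH, *Idh1*, the cytosolic NADPH-forming isocitrate dehydrogenase, fell from 104, 91.1 and 97.3 CPM to 73.6, 71.6 and 69.8 CPM (log2 fold change −0.44, SE 0.08, adjusted p = 0.00154). When single libraries were left out *Idh1* kept an adjusted p of at most 0.00955. *Hacd3* missed the threshold without shCtrl replicate 2 (0.0156), and *Hacd2* missed it (up to 0.0306) in every such fit but that without sh*Pla2g4e* replicate 3, and also with scaling by library size alone. With the block 3 more genes of this list passed, all lower, namely *G6pdx*, which feeds the NADPH-forming pentose phosphate pathway, *Acss1*, a mitochondrial acetyl-CoA synthetase, and *Thrsp*, a lipogenic protein. Of 13 genes of cholesterol uptake, turnover and export, *Abcg1*, a sterol exporter, rose (70.9, 58.4 and 54.3 CPM against 82.3, 87.5 and 79.4 CPM, log2 fold change 0.44, SE 0.10, adjusted p = 0.00668). Its call was lost without shCtrl replicate 2 (0.0516), shCtrl replicate 3, sh*Pla2g4e* replicate 1 or sh*Pla2g4e* replicate 2. With the block *Npc2* and *Lipa*, which release cholesterol from lysosomes, were also called as higher and *Vldlr*, a lipoprotein receptor, as lower. The 12 genes of the isoprenoid branch, the 7 of mitochondrial fatty acid synthesis and the 11 of SREBP processing and sterol sensing held 0 calls in edgeR, limma and DESeq2, with 1, 1 and 2 genes at an unadjusted p under 0.05, in each list a smaller share than the 25.7% of all genes. In the last of these lists *Mbtps2*, a protease that cleaves SREBP, was lower with the block (log2 fold change −0.34, adjusted p = 0.019 without it, 0.00195 with it, 0.00195 to 0.0872 over all alternatives).

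**Figure D5:**
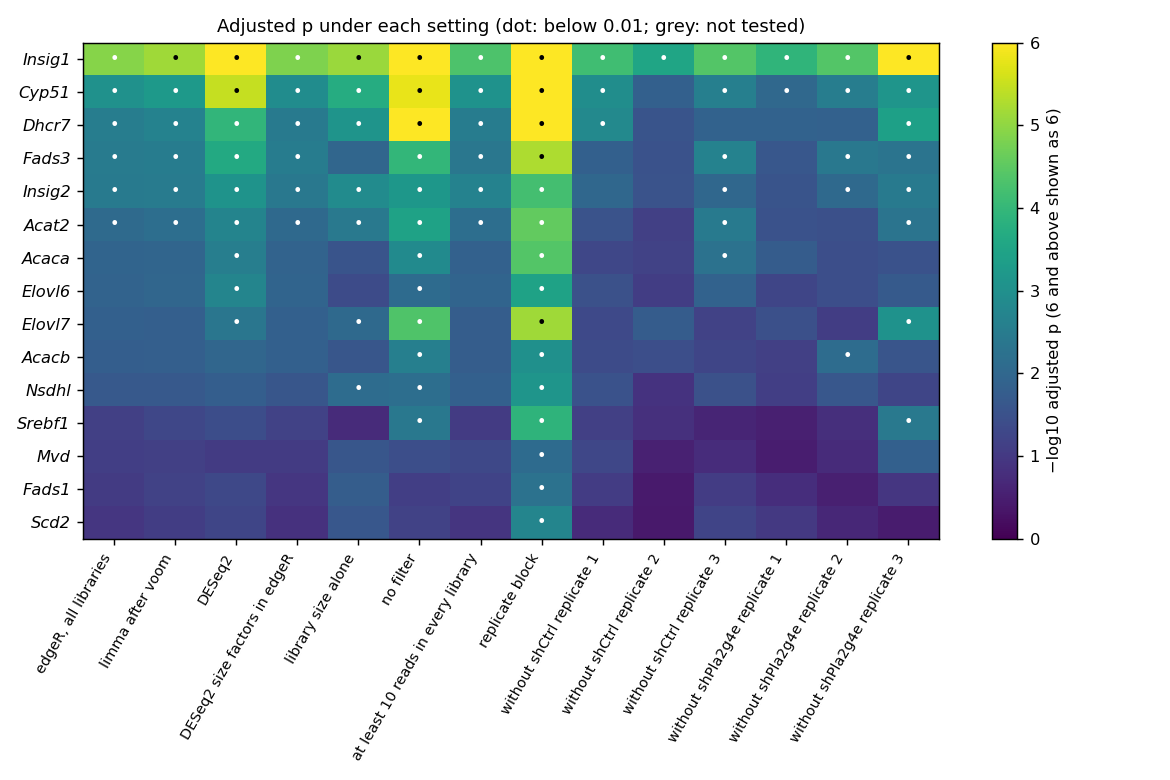
Adjusted p (−log10, colour, values of 6 and above shown as 6) of the 15 genes called with the replicate block under edgeR with all libraries and each alternative, with a dot where it is below 0.01. *Insig1* carries a dot in every column, and *Cyp51* in all but the column without shCtrl replicate 2.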

How the data were processed

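RNA-seq counts of 6 libraries (3 shCtrl and 3 shPla2g4e primary neuronal cultures) were used. The authors made stranded poly(A) libraries, aligned reads with STAR (2.7.0d in the submitters' processing notes) and deposited raw read counts per gene from featureCounts 1.6.0, 1 file per library, without normalization. The notes and the coordinates in the files give GRCm39, whereas the methods of the study name mm10. The recorded command sets no strand option and leaves out multi-mapping reads. Gene symbols (52081 of 55357 identifiers matched), UTRs and transcript sequences came from GENCODE vM21 (GRCm38), and promoter windows from RefSeq (GRCm38.p6). Reads of the libraries totalled 17054717 to 23570180.

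A gene entered the test when any library held 6 or more of its reads, as in the study's own filter, which left 21876 genes for edgeR 4.0.16 in R 4.3.3 (TMM, estimateDisp, glmQLFit, glmQLFTest) and Benjamini-Hochberg adjustment over all of them, with the study's threshold of 0.01. Standard errors were taken from the F statistic. limma 3.58.1 after voom (the study's test), DESeq2 1.42.0 and its size factors, scaling by total reads, dropping the filter, requiring 10 reads in each library, adding the replicate number as a block, raising the threshold to 0.05 and omitting single libraries were alternatives. The test was tried on simulated data first. Library numbers come from the labels. For 10908 genes averaging 3 or more in log2 CPM, same-numbered libraries deviated together from their group means (r = 0.392, 0.189 and 0.461 across genes), which others did not (−0.393 to 0.108), so the numbers were treated as pairs. Shared sequence was the share of 50-base stretches of 1 transcript per gene, that with the longest coding sequence, found in transcripts of other genes.

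The members and lists were chosen with earlier results of these data known. Every member is named within its role group. Values in each library are given for members at an adjusted p below 0.05 or called only with the block. Of each other list the called genes are named, at most 3 by smallest p. *Scap*, *Scd1*, *Mbtps2*, *G6pdx*, *Acss1*, *Thrsp*, *Npc2*, *Lipa* and *Vldlr* were given values or names beyond this rule after their values were seen. No protein sequences were used here.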

Additional observations from a re-analysis of the deposited data

How the results depend on the processing

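Of the 6 members called, *Insig1* was called under every alternative tried. limma, DESeq2 size factors in edgeR and the filter of 10 reads called the same 6 members. The number called lower (1) was 3 with DESeq2, 0 with library size alone, 5 with no filter, 5 with the replicate block, 4 at a threshold of 0.05, and 0 to 2 when single libraries were left out. The number called higher (5) was 10 with the replicate block and 1 (without shCtrl replicate 2) to 6 (without shPla2g4e replicate 3) in those fits, which have 2 libraries in 1 group. Of the other pathway genes, 3 were called lower, but 5 with no filter, 8 with the block, 5 at 0.05 and 2 to 5 without single libraries, and 1 was called higher, but 3 with the block, 2 at 0.05 and 0 to 2 without single libraries. The median log2 fold change of the members (0.08) was 0.15 with library size alone, which raised the median of all genes from 0.03 to 0.10, was 0.10 with the filter of 10 reads and 0.032 to 0.092 without single libraries. Over all genes the block raised the calls from 1419 to 3395, no filter to 2349, DESeq2 to 1901 and a threshold of 0.05 to 2813. Signs changed for uncalled genes near 0. With library size alone *Sqle*, *Acss2* and *Elovl5* had 0.057, 0.062 and 0.065, and with the filter of 10 reads 0.0010, 0.0061 and 0.010. Without single libraries the log2 fold change ran from −0.016 to 0.12 for *Hmgcs1*, −0.31 to 0.0018 for *Idi1*, −0.042 to 0.093 for *Fdft1*, −0.074 to 0.036 for *Sqle*, −0.044 to 0.20 for *Msmo1*, −0.072 to 0.065 for *Acss2*, −0.15 to 0.42 for *Scd1*, −0.022 to 0.091 for *Elovl1* and −0.078 to 0.052 for *Elovl5*. The cause of these changes was not tested. Blocked calls stand in the report where they differ for members, other pathway genes and cell type markers, and the block changed no other call among the members. DESeq2 gave no adjusted p for 5514 genes, which stayed without a call. With 3 libraries per group, and with 19 to 73 reads for *Acacb*, the confidence intervals given bound what these libraries can tell.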
